A study of Mus musculus with 5 samples.

Results

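The 8 transcription factors described here, *Hnf4a*, *Pax8*, *Pax2*, *Irx1*, *Tfap2b*, *Gata3*, *Tfcp2l1* and *Esrrb*, are genes known to mark or specify segments of the kidney tubule. They were taken as a list of names by a rule that uses no measured value, though earlier results of these data were known, and all 8 are among the 17389 genes of the count matrix. The material was single cells from the digested kidneys of adult *FVB/Ant* mice, profiled by droplet sequencing of transcript 3′ ends in which a unique molecular identifier (UMI) tags every captured transcript and copies of it count once. The 5 libraries hold 14197 cells and 60492486 UMIs, between 9791091 and 15950717 UMIs per library. There are 2 wild type libraries, WT female and WT mix, and 3 libraries of littermates lacking *Fame* (KO female, KO male, KO mix); a mix holds both sexes. The study made the knockout with CRISPR/Cas9 by placing stop codons behind the start codon of *Fame*, which leaves an mRNA that 3′ counting still detects, so its count does not check the labels. In the cells of the loop of Henle, *Fame* stood at 327 and 201 CPM in wild type (female, mix) and at 279, 341 and 184 CPM in knockout (female, male, mix), where CPM is the share of a cell type's UMIs in a library, scaled to a sum of 1000000. The number of mice behind each library was not found in the sources, so p-values reflect only how much the libraries vary, which may be technical.

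Along the nephron, filtrate leaves the glomerulus, passes the proximal tubule, the loop of Henle and the distal convoluted tubule, and enters the collecting duct. Each segment keeps its identity through transcription factors that bind the genes of its transporters and channels. HNF4A is a nuclear receptor that maintains proximal tubule cells, PAX2 and PAX8 are paired-box factors needed to form the nephron and collecting duct, and IRX1 is an Iroquois homeodomain factor of the intermediate nephron. TFAP2B is an AP-2 factor of the distal nephron, GATA3 a zinc-finger factor of the nephric duct and collecting duct, TFCP2L1 a grainyhead-like factor of the collecting duct, and ESRRB an orphan nuclear receptor related to the estrogen receptors.

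The cell types are those of the study's annotation, named as in the files. PT_c and PT_s are the convoluted and straight proximal tubule, PT_1 and PT_2 are proximal subclusters without an assigned identity, and PT_f is a small proximal cluster that the study calls female-specific. Juxt_ldl_LOH is the long descending limb of juxtamedullary nephrons, LOH the loop of Henle, DCT the distal convoluted tubule, CD_PC the principal cells of the collecting duct, and CD_IC/CD_Trans its intercalated and transitional cells. The markers fixed for each segment were highest in the matching clusters, except that *Kcnj1*, a potassium channel listed for the loop, was highest in DCT, *Plat*, listed for glomerular endothelium, in the podocytes, and the 3 markers of parietal epithelium, which has too few cells here, in fibroblasts or Juxt_ldl_LOH. The 5 loop markers summed to 22064 to 31809 CPM in LOH and to 3956 to 7584 CPM in DCT. The 5 principal cell markers summed to 6060 to 11933 CPM in CD_PC and still to 1697 to 2980 CPM in CD_IC/CD_Trans, where the 5 intercalated markers stood at 4684 to 9219 CPM.

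Some UMIs in every droplet come from free RNA of broken cells. The red blood cells (RBC), which do not make proximal tubule transporters, held 3532 to 4489 CPM of the 10 proximal tubule markers, and glomerular endothelium (GL_endo) held 2007 to 3706 CPM. The level of a factor in RBC, and in GL_endo where it bears on a result, is therefore given beside its levels as a measure of this background. The background differed between types, as LOH held 456 to 1265 CPM of the same 10 markers, CD_PC 836 to 2188 CPM and CD_IC/CD_Trans 641 to 965 CPM. It can thus be lower in a tubule type than in RBC, and a level under that of RBC need not be background alone. In GL_endo, most *Gata3* UMIs lay in a few cells, so for that gene it does not measure a background shared by all cells. Levels are compared between cell types for 1 gene at a time, never between genes, since the counts are not per length. By the annotation, WT female, KO female and KO male were sequenced in run 2, and WT mix and KO mix in run 3. Of 14172 cell barcodes, 25 occur in 2 libraries.

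The positions of the factors follow the GENCODE annotation of GRCm38 (mm10). *Hnf4a* lies on chr2:163506808-163572910, *Pax8* on chr2:24420560-24475599, *Pax2* on chr19:44756045-44837871 and *Irx1* on chr13:71957921-71963723. *Tfap2b* lies on chr1:19208914-19238576, *Gata3* on chr2:9857078-9890034, *Tfcp2l1* on chr1:118627945-118685168 and *Esrrb* on chr12:86361117-86521628. *Hnf4a* overlaps the antisense gene *Hnf4aos* with 1818 UMIs, *Pax8* the opposite-strand *Gm13415* with 28 UMIs, and *Gata3* the same-strand *9230102O04Rik* with 223 UMIs and the opposite-strand *4930412O13Rik* with 3. Whether the counting used the strand was not stated in the sources, so reads of these pairs may be shared.

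RefSeq promoter windows of GRCm38.p6 were matched for 7 of the 8 factors, 11 windows in all, since *Hnf4a* and *Esrrb* have several starts, as does *Pax2*; *Irx1* had no entry. The 250 bases before each start were searched on both strands for letters that factors of these families bind. The letters were AGATAA for GATA factors, GCCNNNGGC for AP-2 factors, ACANNTGT for IRX factors, CAAAGTCCA for HNF4, TCAAGGTCA for estrogen-related receptors and GTCACGC for PAX factors. The longer sites of TFCP2L1, and of HNF1, which is a factor outside the list, were searched as well. The windows shown hold a match for the family of another factor in the list, with the matched bases in capitals. They run from 250 to 1 base before the start, except that of *Hnf4a*, which stops 41 bases before the RefSeq start, a little past the first base GENCODE gives for the gene, so that its last bases and part of the marked match already lie in the gene as annotated there. The whole *Gata3* window lies within *Gata3* as GENCODE gives it, downstream of the first base of the gene there. It also lies in an exon of the antisense gene *Gm13256*. The first is the upstream start of *Hnf4a* (chr2:163506607-163506816, plus strand), followed by the second of the 3 *Pax2* starts (chr19:44755502-44755751, plus strand), *Gata3* (chr2:9878601-9878850, minus strand) and *Tfcp2l1* (chr1:118627695-118627944, plus strand).
Hnf4a: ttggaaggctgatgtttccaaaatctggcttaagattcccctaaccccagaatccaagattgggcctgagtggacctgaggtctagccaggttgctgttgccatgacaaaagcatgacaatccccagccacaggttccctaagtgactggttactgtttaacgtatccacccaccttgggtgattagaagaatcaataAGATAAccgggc
Pax2: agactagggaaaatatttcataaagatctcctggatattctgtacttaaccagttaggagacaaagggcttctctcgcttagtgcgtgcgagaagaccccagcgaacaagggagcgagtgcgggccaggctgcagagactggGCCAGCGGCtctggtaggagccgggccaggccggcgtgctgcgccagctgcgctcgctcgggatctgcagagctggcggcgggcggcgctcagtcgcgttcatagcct
Gata3: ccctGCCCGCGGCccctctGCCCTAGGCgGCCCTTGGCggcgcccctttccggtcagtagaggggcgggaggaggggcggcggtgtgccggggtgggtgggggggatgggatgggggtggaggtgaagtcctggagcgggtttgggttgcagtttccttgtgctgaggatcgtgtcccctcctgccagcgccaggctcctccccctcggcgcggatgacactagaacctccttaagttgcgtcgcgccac
Tfcp2l1: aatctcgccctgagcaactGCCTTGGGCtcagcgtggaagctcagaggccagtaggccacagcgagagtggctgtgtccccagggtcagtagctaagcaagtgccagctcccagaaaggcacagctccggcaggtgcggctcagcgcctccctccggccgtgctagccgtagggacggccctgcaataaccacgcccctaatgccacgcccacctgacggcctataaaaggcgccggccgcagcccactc

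AGATAA stood in the *Hnf4a* window, 52 to 47 bases before the start, and in 9.99% of all 32851 windows. GCCNNNGGC stood in the *Pax2*, *Tfcp2l1* and *Gata3* windows, in *Gata3* at 3 places, and in 13.7% of all windows. ACANNTGT stood in the window of the second *Hnf4a* start and in 6.31% of all windows. The other 5 sets of letters were in none of the 11 windows, and in 0.00913% (HNF1), 0.384% (HNF4), 0.387% (ERR), 1.78% (PAX) and 2.78% (TFCP2L1) of all windows. These are matches of letters in a window, and no binding was measured. Counts of 3′ ends cannot tell the alternative starts apart.

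*Hnf4a* was the factor of the proximal tubule. In PT_c it stood at 372 and 169 CPM in wild type (female, mix) and 370, 380 and 188 CPM in knockout (female, male, mix), 296 ± 108 CPM (SD, n = 5 libraries), and a *Hnf4a* UMI was found in 66.9% of 1812 cells. The 3 libraries of run 2 lay close together and both mixed libraries of run 3 lay far below them. In PT_s it was 294, 159, 319, 207 and 170 CPM in the same order of libraries, lower than in PT_c in 5 of 5. The order of the other proximal clusters, PT_2 at 219 ± 63.7, PT_f at 191 ± 39.8 (n = 4) and PT_1 at 181 ± 48.7 CPM, was not the same in every library.

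In the other tubule types *Hnf4a* lay below RBC in every library that had both. RBC held 65.4 to 115 CPM and GL_endo 25.2 to 95.4 CPM, while LOH held 11.3 to 24.4 CPM, DCT 4.84 to 31.5 CPM and CD_IC/CD_Trans 12.3 to 28.4 CPM. VSMC was above the RBC of the same library in 2 of 4, by at most 1.29 times, and DCT and CD_IC/CD_Trans each exceeded GL_endo in 1 of 5. In each of the 4 libraries with RBC, the level in PT_c was between 2.22 and 5.69 times that in RBC. With each cell thinned to 1000 UMIs, 24.8% of PT_c cells and 8.36% of RBC held a *Hnf4a* UMI. The median depth before thinning was 4780.5 UMIs in PT_c and 1910 in RBC.

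In the mixed libraries *Pax8* and *Pax2* were highest in the long descending limb. Juxt_ldl_LOH had 20 cells or more only in the mixed libraries, where *Pax8* stood at 513 CPM in WT mix and 537 in KO mix, and *Pax2* at 257 and 372 CPM. The next cluster of those libraries was CD_PC, at 128 and 165 CPM for *Pax8* and 165 CPM in both for *Pax2*. In the 51 Juxt_ldl_LOH cells of the other 3 libraries together, *Pax8* had 71 UMIs or 225 CPM and *Pax2* 10 UMIs or 31.7 CPM. The CD_PC means of those libraries were 87.7 CPM for *Pax8* and 43.3 CPM for *Pax2*, so *Pax2* was not highest in the limb there. Of the 168 cells of the cluster, 117 held *Pax8*, 70 held *Pax2* and 57 held both.

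In the collecting duct *Pax8* reached 69.8 and 128 CPM in wild type (female, mix) and 85.3, 108 and 165 CPM in knockout (female, male, mix) in CD_PC, above every other cluster with 5 libraries in each library. In CD_IC/CD_Trans it was lower, at 59.8 ± 16.4 CPM. *Pax8* did not mark the duct alone, since PT_2 held 62.6 ± 28.3, PT_f 60.8 ± 13.9, LOH 38.9 ± 15.2, PT_s 36.3 ± 11 and PT_c 29.2 ± 9.5 CPM against 5.94 to 14.1 CPM in RBC. DCT was the tubule segment with the least, 16.1 ± 12.2 CPM, with WT mix at 37.8 and the other 4 libraries between 9.21 and 13.3 CPM. The parietal epithelium of the glomerulus (PE) had under 20 cells in every library, and 25 of its 44 cells held *Pax8*, with 42 UMIs in all.

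*Pax2* in CD_PC stood at 47.3 and 165 CPM in wild type (female, mix) and 42.7, 40.0 and 165 CPM in knockout (female, male, mix). In CD_IC/CD_Trans it was 14.9, 120, 10.7, 12.3 and 86.6 CPM in the same order. Both mixed libraries were far above the other 3 in both duct clusters, so that a mean over libraries describes neither. CD_PC was above CD_IC/CD_Trans in 5 of 5 libraries, by 1.38 to 3.98 times. In the proximal clusters *Pax2* had means of 3.77 to 9.02 CPM, against 0 to 2.95 CPM in RBC and 0 to 5.05 CPM in GL_endo.

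*Irx1* was highest in the loop of Henle, the long descending limb and PT_f, and every other cluster had a mean of at most 11.4 CPM. In LOH it stood at 94.5 and 127 CPM in wild type (female, mix) and 97.6, 76.5 and 149 CPM in knockout (female, male, mix), and 28.8% of 1384 cells held a UMI of it. Juxt_ldl_LOH held 113 and 123 CPM in the 2 mixed libraries. In PT_f it was 32.9 and 54.5 CPM in wild type (female, mix) and 15.9 and 49.3 CPM in knockout (female, mix), below LOH in 4 of 4 libraries. There, 47 of 275 cells held *Irx1*, or 17.1% (95% exact binomial interval 12.8 to 22.1%), against 34 of 2958 cells or 1.15% in PT_s.

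Few PT_f cells kept *Irx1* after thinning, and their loop and proximal markers are given as counts. *Slc12a1*, the sodium-potassium-chloride cotransporter of the loop, was found in 0 of the 11 PT_f cells with *Irx1* after thinning and in 20 of the 264 without. *Umod*, which encodes uromodulin, was found in 2 of 11 and 43 of 264. The proximal tubule markers went both ways. The scavenger receptor gene *Lrp2* was found in 9 of 11 and 203 of 264, and *Slc27a2* in 11 of 11 and 229 of 264. *Slc34a1* was found in 2 of 11 and 114 of 264, and *Slc22a6* in 0 of 11 and 19 of 264. The 5 loop markers summed to 228 to 490 CPM in PT_f, against 1078 to 2199 CPM in RBC. In the other proximal clusters they summed to 114 to 282 CPM in PT_c, 174 to 716 in PT_s, 370 to 772 in PT_1 and 483 to 1045 in PT_2. The median doublet score of Scrublet was 0.088 in the 47 PT_f cells with *Irx1* before thinning and 0.096 in the 228 without. The 4 markers of the long descending limb summed to 481 to 653 CPM in PT_f and to 11372 to 11509 CPM in Juxt_ldl_LOH.

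*Tfap2b* was found from the loop to the collecting duct. In LOH it stood at 181 and 245 CPM in wild type (female, mix) and 159, 171 and 239 CPM in knockout (female, male, mix). In DCT it was 132, 183, 135, 126 and 147 CPM, in CD_PC 99.0, 157, 74.7, 84.0 and 146, and in CD_IC/CD_Trans 78.5, 135, 46.5, 67.5 and 123. The order LOH, DCT, CD_PC and CD_IC/CD_Trans, from high to low, held in each of the 5 libraries. The steps were 54.5 ± 24.8, 32.4 ± 21.6 and 22.0 ± 4.24 CPM (mean and SD of the paired differences). The proximal clusters held means of 1.54 to 13.1 CPM, Juxt_ldl_LOH 15.8 ± 2.30, and RBC 6.34 to 42.4 CPM.

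*Esrrb* was the rarest of the 8 in cells, with 393 UMIs in 325 of 14197 cells, and was found at the loop and the distal tubule. In LOH it stood at 39.7 and 56.8 CPM in wild type (female, mix) and 38.8, 31.9 and 54.9 CPM in knockout (female, male, mix). In DCT it was 24.2, 12.6, 20.9, 27.0 and 12.3 CPM. LOH exceeded DCT in 5 of 5 libraries, by 1.18 to 4.51 times, with the smallest ratio in KO male. CD_IC/CD_Trans held 2.71 to 7.15 CPM, RBC 0 to 3.96 CPM, and PT_f 0 UMIs in 275 cells, which allows a share of cells with a UMI of up to 1.09% and does not limit the share that expresses the gene. In 12 DCT cells with *Esrrb* after thinning, 12 held *Slc12a3*, the thiazide-sensitive cotransporter of this segment, against 410 of the 542 without. Of the other markers listed for DCT, *Pvalb* was held by 12 of 12 and 359 of 542. *Calb1* was held by 8 of 12 and 376 of 542, and *Trpm6* by 0 of 12 and 87 of 542. These cells were too few in any library for a comparison by library.

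*Gata3* was found in the distal tubule and the collecting duct and was near 0 in the loop. In CD_PC it stood at 160 and 238 CPM in wild type (female, mix) and 174, 160 and 269 CPM in knockout (female, male, mix), in CD_IC/CD_Trans at 79.8, 139, 69.7, 73.7 and 141 CPM, and in DCT at 36.3, 101, 55.4, 46.7 and 98.3 CPM. CD_PC exceeded CD_IC/CD_Trans in 5 of 5 libraries, by 1.71 to 2.50 times. LOH held 5 UMIs of *Gata3* in 1384 cells, at 0 to 1.42 CPM, and RBC 0 to 5.90 CPM. GL_endo held 7.87 to 79.5 CPM, and in KO female that was above DCT and CD_IC/CD_Trans, which exceeded GL_endo in 4 of 5 libraries each. The proximal clusters held means of at most 2.66 CPM.

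The highest level of *Gata3* in any cluster was outside the tubule, in GL_sc, the cells the study calls putative stem cells of the glomerulus. GL_sc lay above CD_PC in 2 of 2 libraries, by 2.07 to 3.42 times. Only the mixed libraries had 20 such cells, with 812 CPM in WT mix and 556 in KO mix, and 94 of all 143 GL_sc cells held a UMI. The defining markers of endothelium summed to 423 to 997 CPM in GL_sc and to 2803 to 6497 CPM in GL_endo, the 4 podocyte markers to 91.7 to 102 CPM and the 3 smooth muscle markers to 11.5 to 33.9 CPM, so no list fixed here names the cluster. Vascular smooth muscle (VSMC) held *Gata3* at 21.1 to 96.3 CPM and the T and NK cells, in which GATA3 is a known lineage factor, at 80.7 and 86.4 CPM with 6 UMIs. In GL_endo, 81 UMIs lay in 23 of 940 cells, and 69 of them in the 12 cells with 3 or more.

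*Tfcp2l1* rose from LOH to DCT and from DCT to the collecting duct, where it was higher in CD_IC/CD_Trans than in CD_PC. In CD_IC/CD_Trans it stood at 1069 and 1235 CPM in wild type (female, mix) and 939, 915 and 1275 CPM in knockout (female, male, mix), in CD_PC at 693, 841, 768, 740 and 752 CPM, and in DCT at 477, 359, 480, 386 and 372 CPM. LOH followed with 385, 172, 284, 314 and 170 CPM. The order CD_IC/CD_Trans, CD_PC, DCT and LOH held in each of the 5 libraries. A UMI of it was found in 94.9% of 354 CD_IC/CD_Trans cells, at a median depth of 5010 UMIs, and in 62.4% after thinning, against 6.30% of RBC.

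In the proximal clusters *Tfcp2l1* lay between 68.0 and 138 CPM on average, with RBC at 41.3 to 81.2 CPM. In PT_s the female libraries stood at 188 CPM (wild type) and 154 CPM (knockout), the male knockout library at 62.8 CPM, and the mixed ones at 46.0 and 49.4 CPM. PT_s was above the RBC of the same library in 4 of 4, by 1.16 to 2.32 times, and above GL_endo in 4 of 5. The only library of male cells alone is a knockout, and 1 library allows no test of sex.

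**Figure D1:**
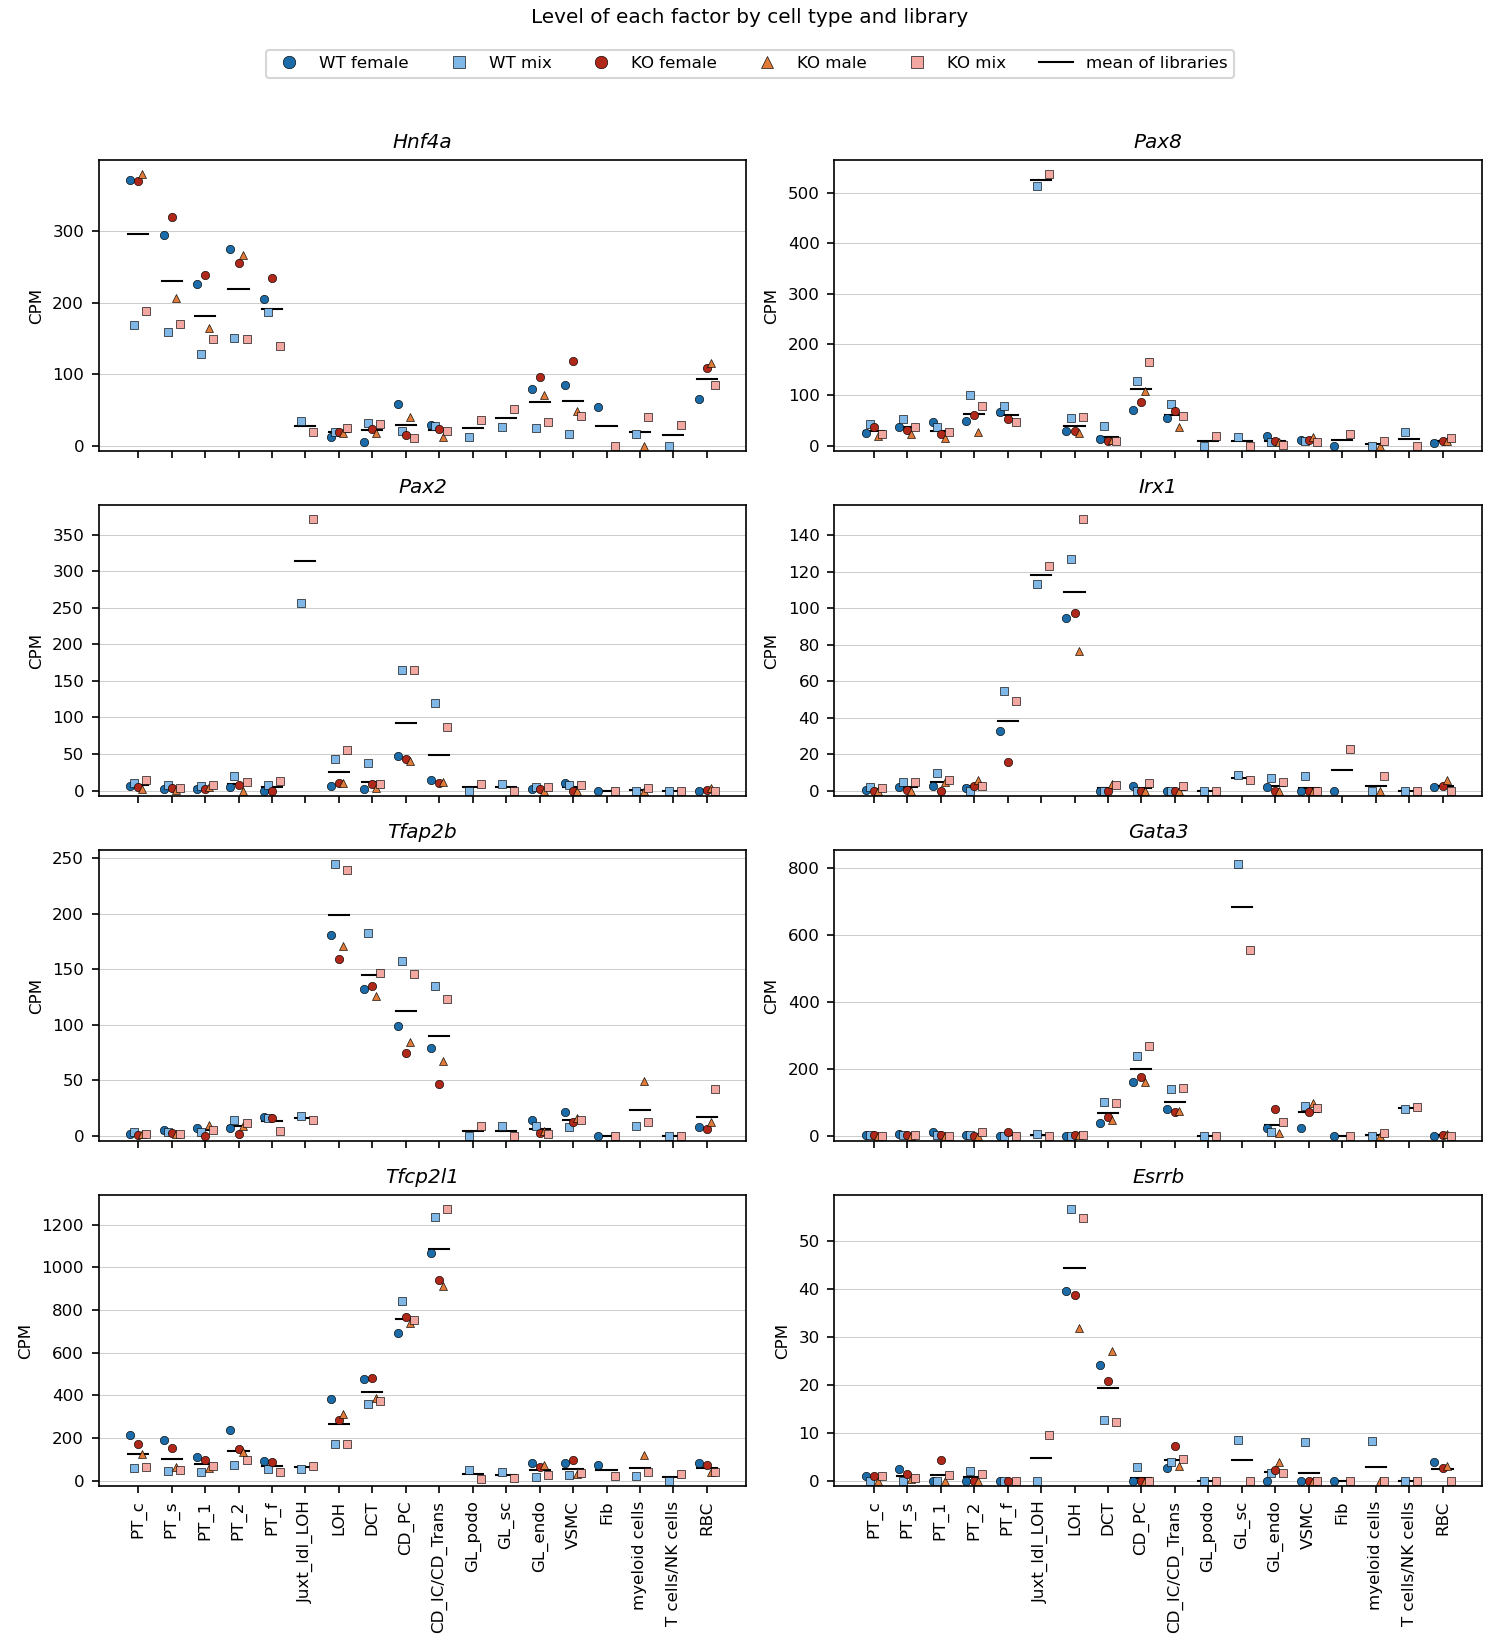
Level of each factor in CPM (linear axis, own scale for each gene) by cell type and library, for libraries with at least 20 cells of the type, with the mean over libraries as a black line. *Hnf4a* sits on the 5 proximal clusters, *Irx1* on Juxt_ldl_LOH, LOH and PT_f, *Tfap2b* steps down from LOH to CD_IC/CD_Trans, *Gata3* is near 0 in LOH, and the squares of the mixed libraries stand above the other points for *Pax2* in the collecting duct.

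Several factors were often found in 1 cell. At least 3 of the 8 were found in 39.6% of CD_PC, 35.0% of CD_IC/CD_Trans, 29.2% of Juxt_ldl_LOH, 23.3% of LOH and 18.6% of DCT cells, against 10.9% in PT_f, 10.7% in PT_s and 7.89% in PT_c. Of 445 CD_PC cells, 354 held *Tfcp2l1*, 198 *Gata3* and 166 both. In LOH, *Irx1* and *Tfap2b* were found together in 230 of 1384 cells, of which 398 held the former and 615 the latter. In DCT, 211 of 554 cells held *Tfap2b*, 119 *Gata3* and 68 both. These counts rise with the depth of a cell, depend on which segments the listed factors belong to, and are descriptions of the libraries. Whether factors were found together more often than their single shares would give was not tested.

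In CD_IC/CD_Trans, a cluster of intercalated and transitional cells, the cells with *Gata3* carried principal cell markers more often. After thinning, *Aqp2*, the vasopressin-regulated water channel, was found in 52.6% (95% interval 35.8 to 69.0%) of 38 cells with *Gata3* and in 24.7% (20 to 29.8%) of 316 without, and higher with *Gata3* in 4 of the 4 libraries with enough cells. *Fxyd4*, a regulator of the sodium pump, was found in 39.5% and 19.0%, also higher in 4 of 4. *Slc26a4*, which encodes pendrin of type B intercalated cells, was found in 13.2% and 23.1%, higher with *Gata3* in 0 of 4, while *Slc4a1*, the anion exchanger of type A cells, was found in 36.8% and 20.9%, higher in 3 of 4. The proton pump subunit *Atp6v0d2* was found in 39.5% and 46.8%, higher in 0 of 4. *Atp6v1g3*, another subunit, was found in 94.7% and 90.8%, higher in 3 of 4, and *Aqp6* in 36.8% and 32.6%, higher in 2 of 4. In the 22 cells with *Tfap2b*, *Aqp2* was found in 59.1%, against 25.6% of 332 without, higher in 2 of the 2 libraries with enough cells. *Aqp3* was found in 31.8% and 31.3%, higher in 1 of 2, and *Atp6v1g3* in 77.3% and 92.2%, higher in 0 of 2. In the 14 cells with *Pax2*, *Aqp2* was found in 42.9%, against 27.1% of 340 without, and *Fxyd4* in 42.9% and 20.3%. *Atp6v0d2* was found in 57.1% and 45.6%, and all 3 were higher with *Pax2* in 2 of 2 libraries. The cells with *Gata3* had a median of 5941.5 UMIs and a median doublet score of 0.131, and those without 4834 UMIs and 0.141. Cells of a library are not replicates, and no test was run on these shares.

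In CD_PC, where most cells held *Aqp2*, the shares with and without *Gata3* lay closer. *Aqp2* was found in 88.4% of 86 cells with *Gata3* and in 77.4% of 359 without, and the sodium channel subunit *Scnn1g* in 36% and 26.2%, both higher with *Gata3* in 5 of 5 libraries, as was *Aqp3*. *Fxyd4* was found in 69.8% and 66.6%, higher in 3 of 5, and the vasopressin receptor gene *Avpr2* in 16.3% and 20.3%, higher in 1 of 5. In DCT, *Slc12a3* was found in 84.0% of 81 cells with *Tfap2b* and in 74.8% of 473 without, in 5 of 5 libraries. With and without *Gata3* it was found in 73.5% and 76.3%, yet higher with *Gata3* in 3 of 4 libraries. *Calb1*, a calcium-binding protein gene, was found in 79.4% and 68.7%, higher with *Gata3* in 4 of 4. *Pvalb* was found in 67.6% and 66.9%, higher in 2 of 4, and *Trpm6* in 11.8% and 16.0%, higher in 1 of 4.

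**Figure D2:**
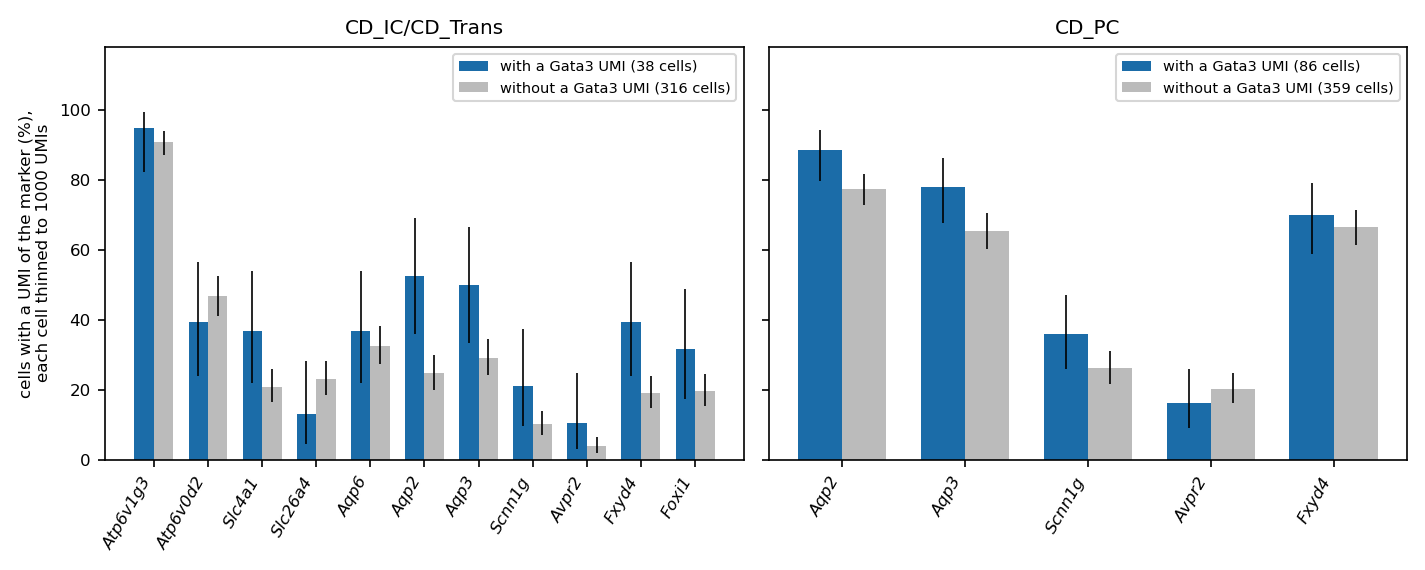
Share of cells (%) with a UMI of each collecting duct marker among cells with and without a *Gata3* UMI in CD_IC/CD_Trans and CD_PC, each cell thinned to 1000 UMIs, with 95% exact binomial intervals that cover counting error only. The largest gap in the left panel is that of *Aqp2*, 52.6% against 24.7%.

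For each factor, the 3 genes with the nearest pattern were sought by Pearson's r of log2 CPM over 13 cell types, which leaves out Juxt_ldl_LOH and GL_sc with their 2 libraries, among 9737 genes with at least 300 UMIs. The points share libraries, depth and free RNA, and the values are a description. Nearest to *Hnf4a* were *9130016M20Rik* (r = 0.993), *Tkfc* (0.992), a triokinase, and *Aadac* (0.989), an arylacetamide deacetylase. *Irx1* was followed by *Cldn19* (0.970), a claudin of the loop's tight junctions, *Gm12927* (0.876) and its cluster neighbour *Irx2* (0.840). *Esrrb* was followed by *Dusp9* (0.968), *Umod* (0.934) and *Ppp1r1a* (0.931), all led by LOH.

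*Tfap2b* was nearest to *Epcam* (0.967), an adhesion molecule of epithelia, *Sim1* (0.965) and *Nudt4* (0.953). *Gata3* was nearest to *Rasd1* (0.979) and the caveolin genes *Cav1* (0.959) and *Cav2* (0.942), which were all highest in CD_PC among the 13 types. *Tfcp2l1* was nearest to *Slc44a3* (0.98), *Tmprss2* (0.955) and the kidney cadherin *Cdh16* (0.953). *Pax8* was nearest to the keratin gene *Krt8* (0.933), *Pi4k2b* (0.926) and *Rassf7* (0.923), and *Pax2* to *Pcgf6* (0.941), *Gmcl1* (0.938) and *Slc27a1* (0.934). Among the 8 themselves the highest r was 0.92, for *Pax2* and *Tfcp2l1*, and the lowest -0.87, for *Hnf4a* and *Tfap2b*.

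Of a list of 50 other kidney transcription factors, all were in the matrix and 45 had at least 100 UMIs. CD_PC led for 14 of these, more than any other type, while PT_c, LOH, DCT and VSMC led for 5 each. The highest by level were *Maf* at 406 ± 59.6 CPM in the proximal tubule, *Ppargc1a* at 341 ± 48.6 CPM in LOH, *Hoxd8* at 341 ± 26.7 CPM in DCT and *Ehf* at 317 ± 37.8 CPM in CD_PC. *Ehf* stood at 0 to 8.85 CPM in RBC, and *Maf* at 98.9 to 177 CPM.

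The libraries of run 3 stood apart from those of run 2 for most of the factors. Run and sex composition cannot be told apart, since run 3 holds both mixed libraries alone. Run 3 also had more mitochondrial UMIs, a median of 28.4% and 29.4% against 12.6 to 15.3% in run 2, and almost no free hemoglobin, the red cell markers in LOH being at 4.87 and 18.3 CPM against 3646 to 10151 CPM. The part of these in the differences was not tested. Values are compared by whether both run 3 libraries lie outside all run 2 libraries, with no test. Of 48 pairs of factor and cell type with enough counts, 23 were higher and 14 lower in run 3, where 22.8% and 27.6% of all pairs of gene and cell type were.

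*Pax2* differed most. In CD_IC/CD_Trans its mean was 103 CPM in run 3 and 12.6 in run 2, 8.17 times higher, and 6 of the 6329 genes compared had a ratio as high. In LOH it was 49.8 against 8.84 CPM, 5.63 times higher, with 12 of 8957 genes as high, and in CD_PC 165 against 43.3 CPM, 3.82 times higher. Both genotypes showed it, WT mix with 43.8 CPM against 6.30 in WT female in LOH, and KO mix with 55.7 against 10.3 and 9.91 in the other knockouts. *Pax2* was higher in run 3 in 5 of 5 types compared, which were these 3, PT_c and PT_s. The share of all genes without overlap in that direction was 30.6% in CD_IC/CD_Trans, 18.4% in LOH, 33.8% in CD_PC and 15.1% in PT_s. Over the 11 cell types together it was 22.8%.

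*Pax8*, *Irx1*, *Tfap2b* and *Gata3* leaned the same way. *Gata3* in DCT was 99.5 CPM in run 3 and 46.1 in run 2, 2.16 times higher, where 14.2% of all genes were higher without overlap. *Tfap2b* was 2.01 times higher in CD_IC/CD_Trans and 1.42 times in LOH, and *Pax8* 1.99 times in LOH. *Irx1* was higher in LOH, PT_f and PT_s, the 3 types compared, where 18.4%, 19.0% and 15.1% of all genes were higher. *Esrrb* was 1.52 times higher in LOH and 1.93 times lower in DCT, where 33.2% of all genes were lower without overlap. In LOH 6 of the 7 factors compared were higher in run 3, against 18.4% of all genes. *Hnf4a*, which lay below its level in RBC there, was among them. The median log2 ratio of all genes in LOH was -0.14.

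*Hnf4a* and *Tfcp2l1* went the other way in the proximal tubule. *Hnf4a* was lower in run 3 in all 5 proximal clusters, by 2.10 times in PT_c (178 against 374 CPM), where 37.0% of all genes were lower without overlap, 1.66 in PT_s (31.2%), 1.77 in PT_2 (19.0%), 1.51 in PT_1 (22.5%) and 1.35 in PT_f (41.7%). With TMM scaling the groups overlapped in PT_f. *Tfcp2l1* was lower by 2.80 times in PT_c, 2.83 in PT_s, 2.01 in PT_2 and 1.92 in LOH (171 against 328 CPM), with 34.3% of all genes lower in LOH. In GL_endo *Hnf4a* was lower by 2.81 times and *Tfcp2l1* by 3.38 times, where 17.0% of all genes were lower. In CD_IC/CD_Trans *Tfcp2l1* was 1.29 times higher, and with TMM scaling the groups overlapped.

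**Figure D3:**
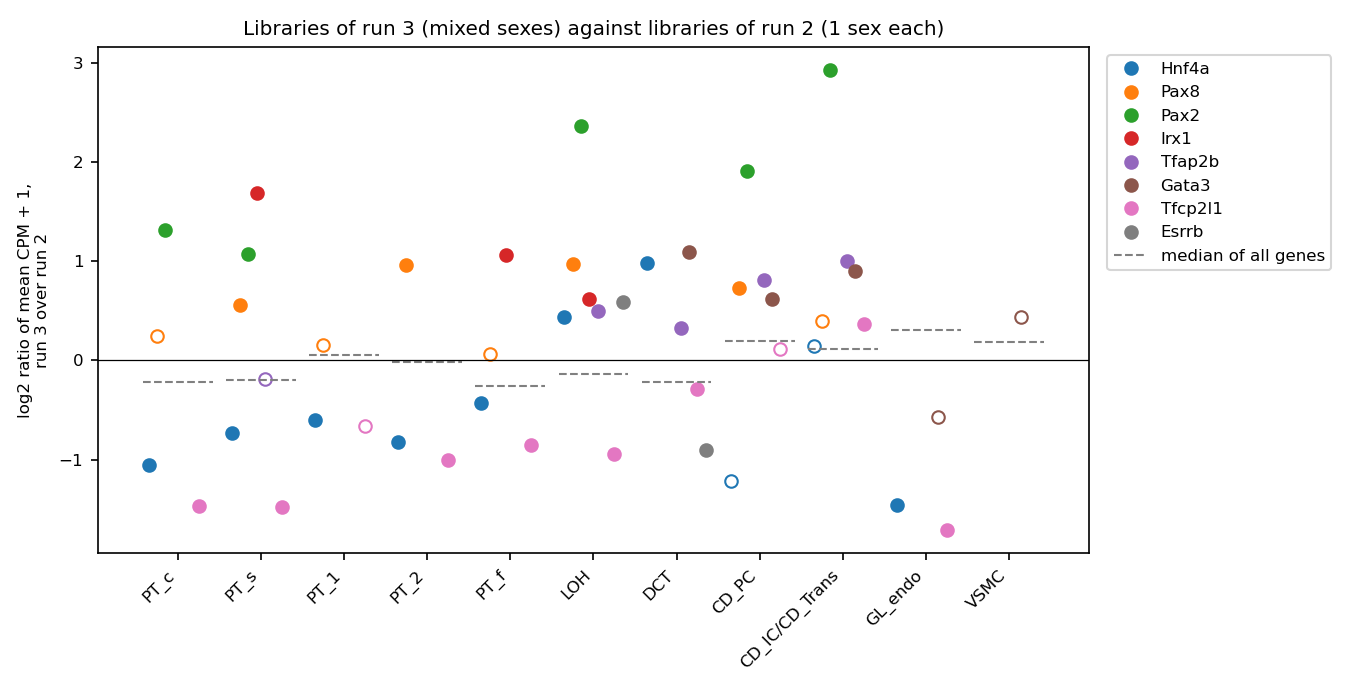
Log2 ratio of the mean CPM + 1 of both run 3 libraries (mixed sexes) over that of the run 2 libraries (a single sex each) by factor and cell type, filled where the libraries of the runs do not overlap and open where they do, with the median of all genes as a dashed line. *Pax2* is highest in LOH, CD_PC and CD_IC/CD_Trans, at 2.37, 1.91 and 2.93, while *Hnf4a* and *Tfcp2l1* lie below 0 in most proximal clusters.

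Loss of *Fame* was compared with wild type in 11 cell types, to ask whether the levels of the segment factors differ. UMIs were summed per library and type and tested across all genes with the quasi-likelihood test of edgeR. None of the 8 factors passed the test, with 0 of 47 pairs of factor and cell type called at an adjusted p under 0.05 and 1 at an unadjusted p under 0.05, and with 0 called by DESeq2 or limma-voom. No other gene was called either, 0% of the 68554 pairs of gene and cell type, of which 284 or 0.414% had an unadjusted p under 0.05. With the run as a block 15 were called, none of them one of the 8. Of these, 11 were in PT_f, where that block left 1 residual degree of freedom. The unadjusted p of edgeR with the run block was under 0.05 for *Tfap2b* in PT_s (0.0175), *Hnf4a* in DCT (0.0222) and CD_PC (0.0362) and *Pax8* in PT_1 (0.0395). A block for the sex composition, which left 1 residual degree of freedom, gave 93 calls, among them *Gata3* in GL_endo (log2 fold change 1.83, adjusted p of edgeR 0.0158). The other 41 pairs did not pass the filter on low counts. With 2 libraries against 3, and without the run in the main model, intervals were wide. A value that misses the threshold does not show that the factor stayed the same. With the run as a block, the SE was 0.16 in place of 0.37 for *Hnf4a* in PT_c and 0.29 in place of 1.06 for *Pax2* in LOH. For *Pax8* in PT_c it stayed at 0.37.

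In its highest type among those tested, each factor overlapped between the genotypes. Juxt_ldl_LOH, where *Pax8* and *Pax2* were highest in the mixed libraries, and GL_sc had 1 library per genotype and were not tested. *Hnf4a* in PT_c was 271 ± 144 CPM in wild type (n = 2) and 313 ± 108 in knockout (n = 3), a log2 fold change of 0.17 (95% interval -0.68 to 1.03; adjusted p of edgeR 1). *Pax8* in CD_PC had 0.34 (-0.56 to 1.24), *Pax2* in CD_PC -0.25 (-1.76 to 1.26) and *Gata3* in CD_PC 0.06 (-0.75 to 0.87). In LOH the values were -0.03 (-0.89 to 0.84) for *Irx1*, -0.17 (-0.92 to 0.59) for *Tfap2b* and -0.18 (-1.01 to 0.66) for *Esrrb*, and *Tfcp2l1* in CD_IC/CD_Trans had -0.06 (-0.84 to 0.72).

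Of the 47 pairs, 4 had every knockout library below every wild type library and 0 had every one above, against 5.57% and 4.37% of all pairs of gene and cell type. *Pax8* in PT_1 was 46.1 and 36.3 CPM in wild type and 23.3, 14.2 and 26.2 CPM in knockout, a log2 fold change of -0.89 (SE 0.38; unadjusted p 0.0509, adjusted p of edgeR 1, and also 1 with the run as a block), where 4.61% of all genes lay below without overlap. *Pax8* in PT_f was 65.7 and 77.8 CPM against 53.1 and 46.4 CPM, -0.59 (SE 0.46, adjusted p of edgeR 1), where that share was 7.84%. *Tfap2b* in PT_s, at 4.51 against 1.44 CPM and thus under its level in RBC, had -1.58 (SE 0.49; unadjusted p 0.0170, adjusted p of edgeR 1), where the share was 4.65%. *Hnf4a* in CD_IC/CD_Trans, also under its level in RBC, was the fourth, where the share was 7.40%.

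**Figure D4:**
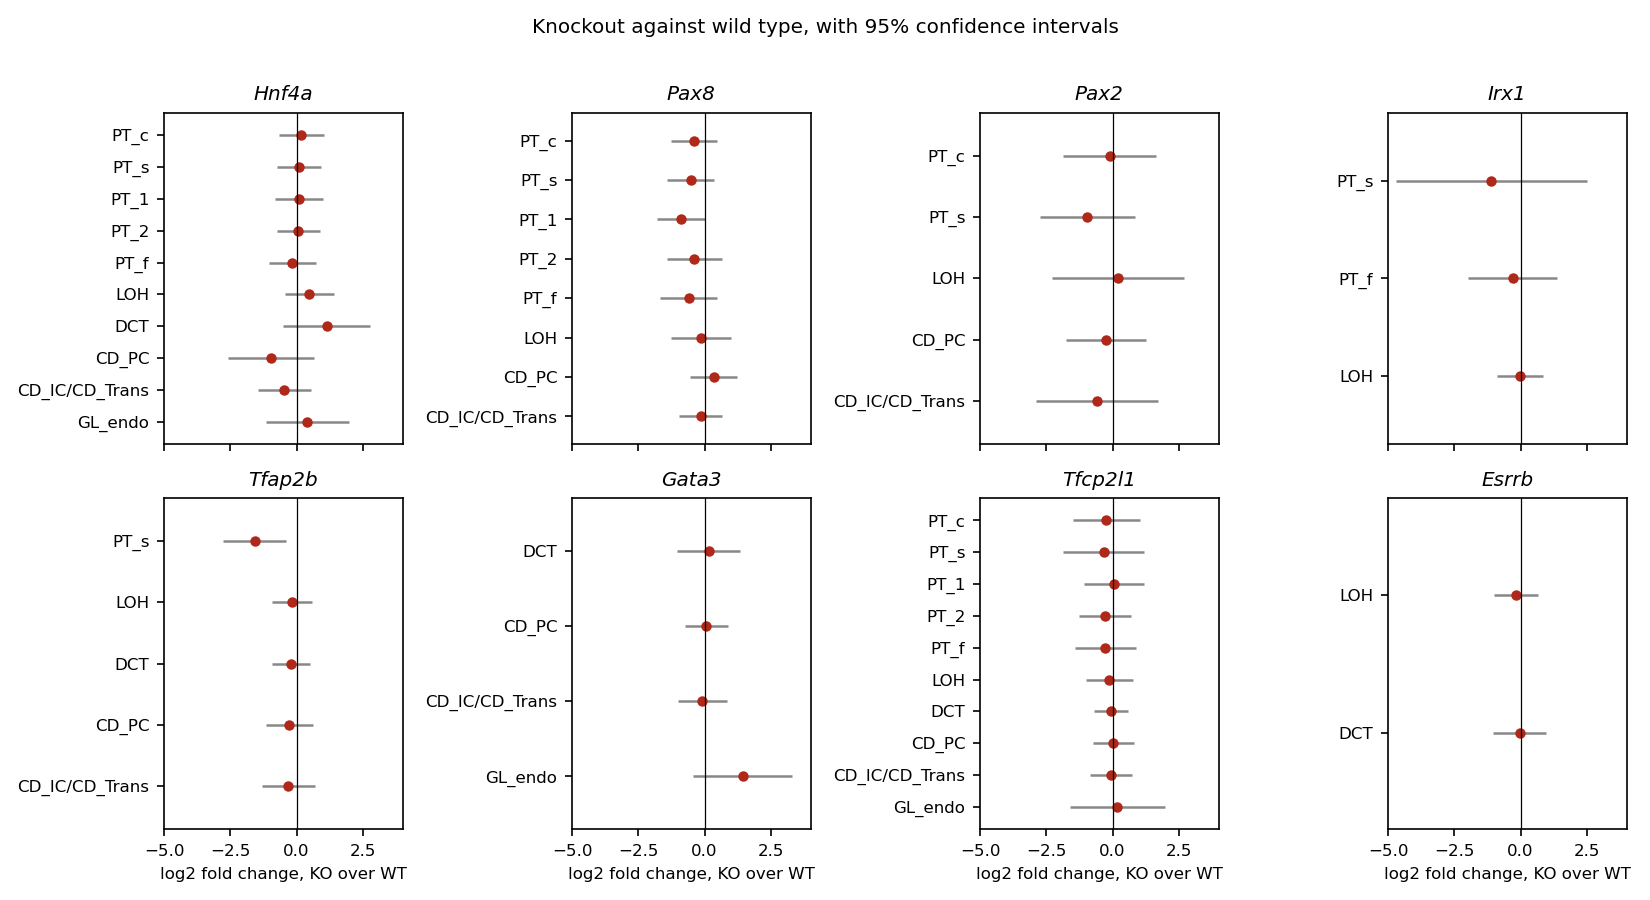
Log2 fold change of knockout over wild type for each factor in each cell type where it passed the filter on low counts. Values are from edgeR without the run as a block, with 95% confidence intervals as bars. All intervals but that of *Tfap2b* in PT_s, at -1.58, reach 0.

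The list of other factors gave no call either. Between 4 and 31 of its 50 genes were tested per type, 0 were called in any of the 11 types by edgeR, and 0 had an unadjusted p under 0.05. In PT_s 7 had a positive and 24 a negative log2 fold change, with a median of -0.19 against 0.00 for all genes, and in LOH 10 were positive and 20 negative, with a median of -0.06. In PT_1 4 were positive and 16 negative (median -0.24), in CD_PC 8 and 17 (-0.13) and in PT_c 9 and 16 (-0.13). GL_endo had 5 and 9 (-0.14) and VSMC 1 and 3 (-0.17). PT_f leaned the other way, with 8 positive and 4 negative and a median of 0.23 against 0.00 for all genes. In CD_IC/CD_Trans 14 were on each side, in PT_2 10 were positive and 11 negative, and in DCT 13 and 11.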

How the data were processed

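Per the study's methods, the authors made the UMI counts with Cell Ranger 4.0.0 against mm10, removed cells under 1000 UMIs or over 50% mitochondrial UMIs and genes in fewer than 3 cells, scored doublets with Scrublet and assigned cell types with Seurat 3.2.2.9001. The deposited matrix holds raw UMI counts per gene and cell. The authors also deposited the percent of mitochondrial UMIs and the Scrublet score of each cell.

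The factors and gene lists were chosen with earlier results of these data known. For each library and cell type with at least 20 cells, counts were added up. Levels are CPM of the raw UMI total. Genotypes were tested in types with 2 libraries each with edgeR 4.0.16's quasi-likelihood test, two-sided (TMM, filterByExpr, Benjamini-Hochberg adjustment over all genes of a type at 0.05; the scripts were tested on simulated data). Alternatives included DESeq2 1.42.0, limma-voom 3.58.1 and blocks. Shares carry 95% exact binomial intervals, and a count of 0 the limit of 3 counts, both for counting error only. Doublets were not removed beyond the authors' steps. Named genes were the factors, the 3 nearest genes by Pearson's r and the 2 highest listed factors per segment by CPM, of which 1 is not reported here; markers named beside them come from the fixed marker lists. Log2 run ratios used a pseudocount of 1 CPM and genes with 10 counts in 2 libraries. Promoters are RefSeq windows. R 4.3.3 and Python 3.11.15 were used.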

Additional observations from a re-analysis of the deposited data

How the results depend on the processing

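Levels in the highest cell type with 5 libraries (not Juxt_ldl_LOH or GL_sc, which have 2) moved by less than the SD between libraries under every alternative tried except that, in cells with at most 25% mitochondrial UMIs, *Irx1* in LOH had a mean of 149 CPM and *Tfap2b* in LOH of 245 CPM; the cause was not tested. Leaving out each library in turn gave means of 275 to 328 CPM for *Hnf4a* in PT_c, 97.7 to 122 for *Pax8*, 73.8 to 105 for *Pax2* and 183 to 210 for *Gata3* in CD_PC, 98.8 to 117 for *Irx1*, 188 to 209 for *Tfap2b* and 41.3 to 47.5 for *Esrrb* in LOH, and 1039 to 1129 for *Tfcp2l1* in CD_IC/CD_Trans.

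The count of genes called for the knockout over the 11 types, 0, became 16 without a filter on low counts, 15 with the sequencing run as replicate block and 93 with the sex composition as replicate block, where 1 residual degree of freedom remained, and ran from 0 to 25 without 1 library each, 10 without WT female and 25 without WT mix. Of the 15 with the run block, 11 were in PT_f, where that block also left 1 residual degree of freedom. Factors called remained 0 except for *Gata3* in GL_endo with the sex composition as block (log2 fold change 1.83, SE 0.37, adjusted p of edgeR 0.0158), 1 pair in all. Log2 fold changes changed sign for *Irx1* in LOH, to 0.01 without a filter, 0.05 with the run block, 0.14 with the sex block and 0.02 with at most 25% mitochondrial UMIs, and for *Esrrb* in LOH, to 0.17 with the last. Without 1 library each, they ran from -0.22 to 0.72 for *Hnf4a* in PT_c, -1.26 to 0.80 for *Pax2* and -0.19 to 0.29 for *Gata3* in CD_PC, and -0.39 to 0.27 for *Irx1*, -0.43 to 0.14 for *Tfap2b* and -0.51 to 0.14 for *Esrrb* in LOH. *Pax8* in PT_1 stayed between -1.09 and -0.72. The alternative fits with at most 25% mitochondrial UMIs in PT_f and DCT, and with at least 2000 UMIs in PT_f and VSMC, could not be fitted for want of cells.

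Libraries of the same name deviated together from their genotype's mean, with correlations of 0.50 to 0.80 across genes in the 11 types, but with 2 wild type libraries these mirror each other. With Spearman's rho, 0 to 2 of the 3 nearest genes per factor stayed. The TMM scaling of the run comparison was added after the data were seen. Depth limits *Esrrb* and *Irx1* most, and types with few cells.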
